A study of Homo sapiens with 12 samples.

Results

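ER-associated degradation (ERAD) removes misfolded proteins from the endoplasmic reticulum (ER). The 10 ERAD genes described here are SEL1L, SYVN1, HERPUD1, EDEM1, EDEM2, EDEM3, DERL1, DERL2, DERL3 and VCP. They were chosen by name, with earlier results of these data known, and all 10 were found among the 28278 genes of the count table. RNA-seq measured them in human embryonic stem cells (hESCs) of the WA26 line, wild type (WT) or with UBQLN1 knocked out (KO). UBQLN1 encodes ubiquilin 1, a shuttle that carries ubiquitinated proteins to the proteasome. The 8 libraries formed 4 groups of 2, namely WT cells and KO cells left untreated at normal O2, KO cells kept at 5% O2, and KO cells that received the antioxidant N-acetylcysteine (NAC). WT cells at 5% O2 and WT cells given NAC were not analysed here, so an effect of either condition in WT cells cannot be told apart from one that needs the knockout. The knockout was made with CRISPR/Cas9, more than 1 clone of each genotype was picked, and the clone behind each library is not given in the sources used here. The study describes its replicates as biological, without saying here whether that means clones or cultures, and p-values measure only the spread between these libraries. It also describes a DMSO vehicle as the control for NAC, which the labels of the untreated KO libraries do not name, so whether they received vehicle is not known.

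Total counts per library ran from 31236968 to 41639350. Levels are given as CPM, which are counts scaled to a common library size, with factors between libraries from the trimmed mean of M-values (TMM). Levels are compared between genes only after division by transcript length in kilobases. A gene was called changed when the quasi-likelihood test of edgeR gave it an adjusted p under 0.05, adjusted by the Benjamini-Hochberg method over the 15916 genes that passed a filter on low counts. All 10 ERAD genes passed that filter. In bulk RNA, fewer cells of a type and less RNA per cell cannot be told apart.

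The targeted gene was examined first. UBQLN1 had 7382 and 7591 counts in the WT libraries and 1559 and 1789 in the untreated KO libraries. It had 2116 and 1530 counts in the KO libraries at 5% O2 and 2392 and 1476 in those given NAC. All 6 libraries labelled KO were therefore below both WT libraries, and the log2 fold change of KO against WT was -2.29 ± 0.12 (SE, adjusted p = 2.52e-06). PGK1, a glycolytic enzyme induced by hypoxia, had 2371 and 2028 CPM in the libraries at 5% O2 against 532 and 551 CPM in the untreated KO libraries. DDIT4, another hypoxia-induced gene, had 186 and 189 CPM at 5% O2 against 17.3 and 17.4 CPM in untreated KO cells. The 12 pluripotent cell markers all had counts in every library, with a summed level between 5820 and 6967 CPM, and per kilobase of transcript DNMT3B was the most abundant of them in 6 libraries, LIN28A in NAC library 1 and DPPA4 in NAC library 2.

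NAC library 1 stood apart from the other 7 libraries. The 10 mesenchymal cell markers summed to 1053 CPM in NAC library 1 and 559 CPM in NAC library 2, and to between 539 and 647 CPM in the other 6. THY1 was the most abundant of them per kilobase in every library. DCN and LUM, which encode matrix proteoglycans, had 1809 and 148 counts in NAC library 1 and 0 in all the others. COL3A1 had 1114 counts there, 8 in WT library 2 and 0 elsewhere. DDIT4 reached 163 CPM in NAC library 1 and 15.2 CPM in NAC library 2, and PGK1 reached 1353 and 939 CPM. The ERAD genes and the gene lists are therefore given for NAC with and without NAC library 1, and without it the remaining NAC library was assumed to vary like the other groups. What these markers contributed to the NAC results was not tested beyond those values.

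In ERAD, a misfolded glycoprotein is trimmed by mannosidases, recognised in the ER lumen, passed through a channel in the membrane, ubiquitinated on the cytosolic side and pulled out for the proteasome. SYVN1 (also called HRD1) is the membrane ubiquitin ligase and part of the channel, and SEL1L is its partner that holds the complex together and receives substrates. HERPUD1 is a membrane protein with a ubiquitin-like domain that joins this complex, and its gene is a known target of the unfolded protein response. EDEM1, EDEM2 and EDEM3 act on the mannose residues of glycoproteins, DERL1, DERL2 and DERL3 are derlins of the ER membrane, and VCP (p97) is the cytosolic ATPase that extracts substrates.

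Per kilobase of transcript, VCP stood far above the other 9 genes, with 222 ± 2.70 CPM per kb in WT cells (SD, n = 2). DERL1 followed with 21.6 ± 0.883 CPM per kb, and then SYVN1 with 9.73 ± 0.484, HERPUD1 with 9.10 ± 0.125, DERL2 with 7.59 ± 0.551 and SEL1L with 5.58 ± 0.794 CPM per kb. EDEM1 and EDEM3 were lower, at 2.88 ± 0.290 and 2.56 ± 0.0403 CPM per kb. EDEM2 and DERL3 were the lowest of the 10, at 0.362 ± 0.287 and 0.0375 ± 0.0293 CPM per kb. With 2 libraries a group, the WT libraries of neighbours in this order did not overlap, although SYVN1 and HERPUD1 lay close, at 9.39 CPM per kb in the lower SYVN1 library and 9.19 in the higher HERPUD1 library. In KO cells given NAC the middle of the order was different. There DERL2 had 13.3 ± 1.97 and HERPUD1 11.6 ± 0.508 CPM per kb, with overlapping libraries. SEL1L had 8.93 ± 0.0864 and SYVN1 8.66 ± 0.957 CPM per kb, again with overlapping libraries.

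**Figure D1:**
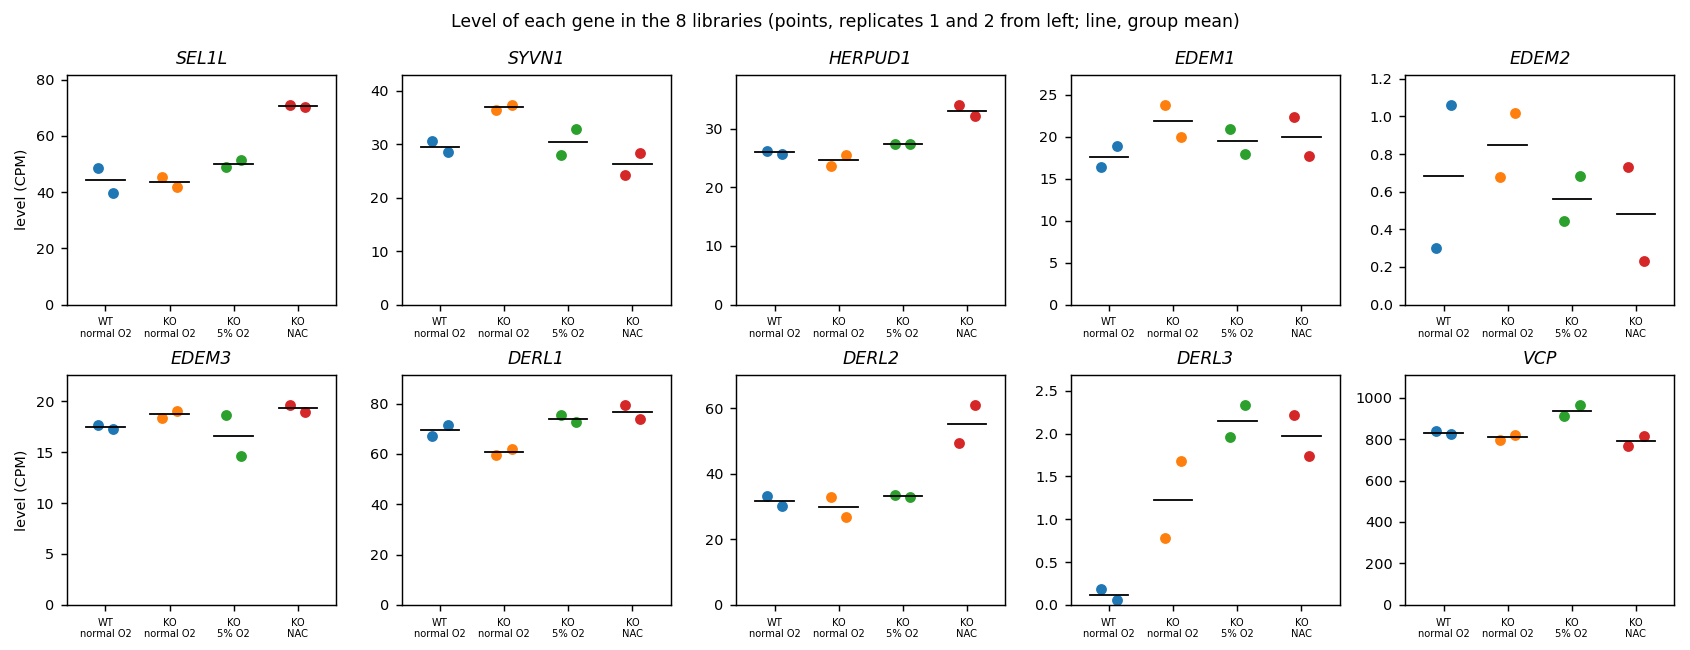
Level in CPM (vertical axes, from 0) of each of the 10 ERAD genes in the 8 libraries, with points for libraries and a line for the mean of each group of 2. SEL1L, at 71.2 and 70.2 CPM, and DERL2, at 49.4 and 61.0 CPM, are highest in the NAC libraries, and DERL3 is lowest in WT, at 0.180 and 0.0519 CPM.

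Counts of some of these genes depend on their place in the genome (GRCh38). EDEM2 (chr20:35115364-35147336, minus strand) lies wholly inside the read-through gene MMP24-AS1-EDEM2, which had 0 to 8 counts in any library. DERL3 (chr22:23834503-23839006, minus strand) overlaps SMARCB1 over 77.9% of its span. The default counting does not assign a read that falls in exons of both overlapping genes, and it does not use strand. Of the 31-base words of the DERL3 transcript, 94.4% also occur on alternate scaffolds of the assembly, and whether the alignment index held those scaffolds is not given in the sources used here. SMARCB1, with 95.8% of such words, had 44 and 184 counts in the WT libraries and 1912 and 62 in the NAC libraries. The levels of EDEM2 and DERL3 are therefore uncertain. SYVN1 shares 93 bases with MRPL49, DERL2 shares 444 bases with MIS12, and DERL1 overlaps a long non-coding gene that is not in the count table. No 31-base word was shared by any of the 45 pairs of ERAD transcripts.

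The promoters of HERPUD1, SEL1L, DERL2 and SYVN1 are shown because these ERAD genes changed with NAC. RefSeq windows (GRCh38.p14, 250 bases before to 50 after the start) were found for 8 of the 10 genes, and there was none for DERL1 and DERL3. The motifs searched on both strands were ERSE (CCAAT and CCACG with 9 bases between), ERSE-II (ATTGG and CCACG with 1 base between), UPRE (TGACGTGG), the core of the hypoxia element (ACGTG) and the core of the amino acid response element, CARE (TGATGNAAN). The first 3 are known from promoters that respond to unfolded proteins. The windows below are read 5′ to 3′ on the gene's strand, with every matched base in capitals. They are chr16:56931892-56932191 (plus) for HERPUD1, chr14:81533804-81534103 (minus) for SEL1L, chr17:5486129-5486428 (minus) for DERL2 and chr11:65134470-65134769 (minus) for SYVN1. The DERL2 window is set on a start at 5486178, which lies inside the outermost RefSeq span of that gene, whose upstream end is at 5486817.
HERPUD1: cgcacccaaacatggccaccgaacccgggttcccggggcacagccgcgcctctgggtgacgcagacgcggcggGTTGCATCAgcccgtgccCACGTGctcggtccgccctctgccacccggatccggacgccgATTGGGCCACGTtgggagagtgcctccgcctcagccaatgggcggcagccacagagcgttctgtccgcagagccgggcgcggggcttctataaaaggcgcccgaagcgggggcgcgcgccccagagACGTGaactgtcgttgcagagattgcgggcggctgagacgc
SEL1L: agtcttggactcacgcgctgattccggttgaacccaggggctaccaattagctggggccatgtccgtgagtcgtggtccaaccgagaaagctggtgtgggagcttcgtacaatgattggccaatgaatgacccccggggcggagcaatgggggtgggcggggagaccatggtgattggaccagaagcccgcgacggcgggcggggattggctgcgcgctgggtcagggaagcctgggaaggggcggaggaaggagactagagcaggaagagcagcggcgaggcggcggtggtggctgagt
DERL2: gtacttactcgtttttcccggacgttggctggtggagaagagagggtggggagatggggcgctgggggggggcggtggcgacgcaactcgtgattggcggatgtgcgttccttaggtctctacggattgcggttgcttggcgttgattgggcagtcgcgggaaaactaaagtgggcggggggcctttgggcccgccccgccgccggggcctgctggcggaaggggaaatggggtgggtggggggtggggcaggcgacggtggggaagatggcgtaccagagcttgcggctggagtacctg
SYVN1: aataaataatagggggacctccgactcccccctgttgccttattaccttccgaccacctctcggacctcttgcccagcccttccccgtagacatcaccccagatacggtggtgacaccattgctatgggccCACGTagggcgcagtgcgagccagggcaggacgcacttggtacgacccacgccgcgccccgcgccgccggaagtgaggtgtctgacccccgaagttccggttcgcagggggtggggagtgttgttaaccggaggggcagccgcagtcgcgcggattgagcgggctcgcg

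HERPUD1 held an ERSE-II from -117 to -107, a CARE core from -177 to -169 on the opposite strand, and 4 hypoxia cores. The hypoxia core from -110 to -106 overlaps the ERSE-II, since CCACG followed by T holds it on the opposite strand, and the 2 cores at -159 and -158 are the same palindrome read on both strands. VCP held a UPRE from -189 to -182, and a hypoxia core lies inside that motif. SYVN1, EDEM2 and EDEM3 held a single hypoxia core each, and none of these motifs was found in the windows of SEL1L, EDEM1 and DERL2. Over the 8 windows, ERSE was in 0 and ERSE-II in 1, against 0.0769% and 0.0541% of all 35116 windows. UPRE was in 1 of 8 (0.729% of all windows), the CARE core in 1 of 8 (3.61%) and the hypoxia core in 5 of 8 (21.4%). These matches describe letters in the window only.

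**Figure D2:**
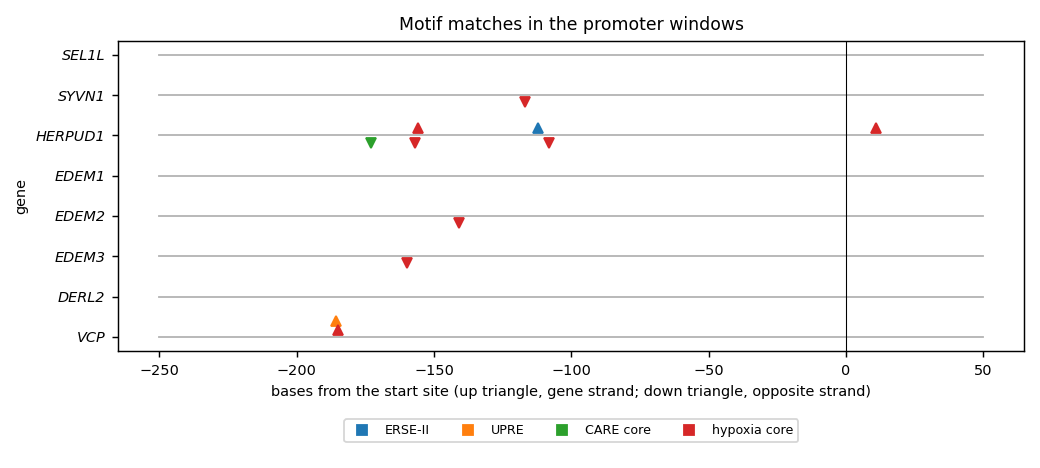
Positions of motif matches in the promoter windows of 8 ERAD genes, in bases from the start site (horizontal axis), with triangles up for the gene's strand and down for the opposite strand. HERPUD1 carries most of the matches, VCP has a UPRE from -189 to -182, and the lines of SEL1L, EDEM1 and DERL2 are empty.

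The comparison of KO with WT at normal O2 asks what loss of UBQLN1 did to the ERAD genes. DERL3 was the only one of the 10 called, and it was higher in KO. It had 6 and 2 counts in the WT libraries, 29 and 69 in untreated KO cells, 80 and 75 at 5% O2 and 85 and 52 with NAC. All KO libraries were thus above both WT libraries, at very low counts. Its WT counts were under the minimum count of 10, so DERL3 passed the filter on low counts only through KO libraries. Its place in this test, and in the count of genes called, therefore depended on the groups where it was high. The log2 fold change was 3.42 ± 0.60 (SE, adjusted p = 0.0147), and the ratio of summed, scaled counts was 11.3, with an exact 95% interval of 5.51 to 26.9 that covers counting error only. The call was lost without WT library 1 (4.49, adjusted p = 0.0568), WT library 2 (2.76, adjusted p = 0.195) or KO library 2 (2.77, adjusted p = 0.136), and DERL3 was not tested when 10 counts were required in every library. Over 16 alternatives its adjusted p ran from 4.84e-08 to 0.195. The uncertainty from its overlap and scaffold copies, described above, applies here.

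The other 9 genes were not called in KO against WT. SYVN1 had 30.6 and 28.5 CPM in WT and 36.4 and 37.4 CPM in KO, with a log2 fold change of 0.32 ± 0.12 (SE, adjusted p = 0.198). The SYVN1 libraries did not overlap, but the difference did not pass the adjusted threshold. DERL1 had a log2 fold change of -0.19 ± 0.091 (SE, adjusted p = 0.298) and EDEM1 of 0.31 ± 0.16 (SE, adjusted p = 0.329). SEL1L, at 48.6 and 39.7 CPM in WT and 45.3 and 41.7 CPM in KO, overlapped between the groups (-0.02 ± 0.11), as did DERL2 and EDEM2. The share of all tested genes without overlap was found only for 5% O2 against normal O2 in KO cells, at 60.9%. VCP had 839 and 825 CPM in WT and 797 and 819 CPM in KO, with a log2 fold change of -0.04 ± 0.075. The count of 1 higher and 0 lower of 10 stands beside 1.34% higher and 0.622% lower of all tested genes, and the median log2 fold change of the 10 was 0.04 against 0.00 for all tested genes. By an absolute log2 fold change over 1 with an unadjusted p under 0.05, 1 of 10 passed, beside 2.57% of all tested genes.

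**Figure D3:**
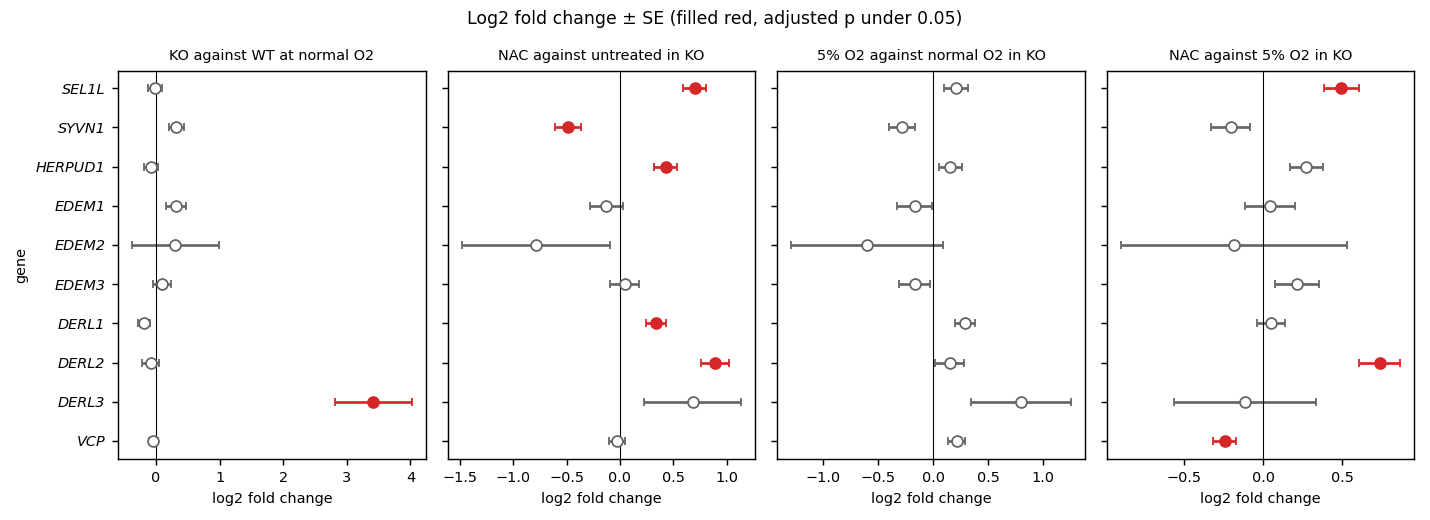
Log2 fold change with its SE (horizontal axes) of the 10 ERAD genes in the 4 comparisons, filled red where the adjusted p was under 0.05. DERL3 is the single call in KO against WT, SEL1L, HERPUD1, DERL1, DERL2 and SYVN1 are called with NAC against untreated KO cells, and none is called at 5% O2.

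The comparison of NAC with untreated KO cells asks what an antioxidant did in the knockout. DERL2, SEL1L, HERPUD1 and DERL1 rose and SYVN1 fell. This comparison, that at 5% O2 and that of KO with WT share the untreated KO libraries.

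SEL1L, the partner of the ligase, had 45.3 and 41.7 CPM in untreated KO cells and 71.2 and 70.2 CPM with NAC. The groups did not overlap, and the log2 fold change was 0.70 ± 0.11 (SE, adjusted p = 0.000324). Without NAC library 1 it was 0.69 (adjusted p = 0.00058), and over 17 alternatives the adjusted p ran from 2.25e-08 to 0.00894. DERL2 had 32.8 and 26.9 CPM in untreated KO cells and 49.4 and 61.0 CPM with NAC. It was the largest called change among the 10 genes in this comparison, at 0.89 ± 0.13 (SE, adjusted p = 0.000227), and 1.03 without NAC library 1. With the length and GC trend removed the largest called change was that of SEL1L, at 0.64. Over the alternatives DERL2 ran from 0.475 to 1.04. Its adjusted p over the alternatives ran from 3.31e-11 to 0.0227.

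SYVN1, the ligase itself, moved the other way. It had 36.4 and 37.4 CPM in untreated KO cells and 24.3 and 28.4 CPM with NAC, with a log2 fold change of -0.49 ± 0.12 (SE, adjusted p = 0.00625). Without NAC library 1 it was -0.38 (adjusted p = 0.0333), and the alternatives gave an adjusted p from 0.000677 to 0.382. The SYVN1 call was lost with the length and GC trend removed, at -0.15 (adjusted p = 0.358). The log2 ratio of SEL1L to SYVN1 counts within a library, chosen after the values were seen, was 0.32 and 0.16 in untreated KO cells and 1.55 and 1.31 with NAC. In WT cells it was 0.67 and 0.48, and at 5% O2 it was 0.81 and 0.65. These ratios restate the opposite changes of both genes within each library and are not corrected for length or GC content.

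HERPUD1, whose promoter held the ERSE-II, had 23.7 and 25.5 CPM in untreated KO cells and 34.1 and 32.1 CPM with NAC. Its log2 fold change was 0.43 ± 0.11 (SE, adjusted p = 0.00601), and 0.38 without NAC library 1 (adjusted p = 0.0226). DERL1 had 59.4 and 61.9 CPM in untreated KO cells and 79.5 and 73.9 CPM with NAC, a log2 fold change of 0.34 ± 0.091 (SE, adjusted p = 0.00952). Without NAC library 1 it was 0.28 (adjusted p = 0.0392). Both calls were lost without KO library 1, where HERPUD1 was at 0.374 against 0.43 with all libraries. The DERL1 call was also lost with the length and GC trend removed, at 0.085 (adjusted p = 0.487). The alternatives gave an adjusted p from 0.00474 to 0.0689 for HERPUD1 and from 0.00555 to 0.516 for DERL1. The log2 ratio of DERL2 to DERL1 counts was also chosen after the values were seen. It was -0.86 and -1.20 in untreated KO cells and -0.69 and -0.28 with NAC. In WT cells it was -1.02 and -1.25, and at 5% O2 it was -1.17 and -1.15. This ratio is likewise not corrected for length or GC content.

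EDEM1, EDEM3 and VCP were not called with NAC, with log2 fold changes of -0.13 ± 0.16, 0.04 ± 0.14 and -0.03 ± 0.075 (SE). Without NAC library 1 these were -0.31, 0.013 and 0.010, again without a call. EDEM2 (-0.79 ± 0.70) and DERL3 (0.68 ± 0.46) had wide errors at their low counts and were not called, nor were they without NAC library 1, at -1.85 and 0.49. The 10 genes thus gave 4 higher and 1 lower, beside 23.8% higher and 20.8% lower of all tested genes. Their median log2 fold change was 0.19, against 0.02 for all tested genes. Without NAC library 1 the median of the 10 was 0.15. With the length and GC trend removed, 3 were higher and 0 lower with a median of 0.12, beside 13.3% and 11.4% of all tested genes. None of the 10 passed an absolute log2 fold change over 1 with an unadjusted p under 0.05, beside 9.02% of all tested genes.

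The NAC fold changes moved with base composition and transcript length. Spearman's rho of the NAC fold change across 15281 tested genes was -0.49 with GC content and -0.25 with length, and genes are not independent of each other as replicates would be. The GC content of the canonical transcript was 39.3% for SEL1L and 39.1% for DERL2, and 58.5% for SYVN1. EDEM3, at 38.4% GC, was not called. With a smooth trend on length and GC removed from each library, SEL1L (0.64, adjusted p = 0.0011), DERL2 (0.48, adjusted p = 0.0167) and HERPUD1 (0.28, adjusted p = 0.0499) were called. SYVN1 was at -0.15 (adjusted p = 0.358) and DERL1 at 0.09 (adjusted p = 0.487), and neither was called. What base composition contributed to these changes was not tested further.

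**Figure D4:**
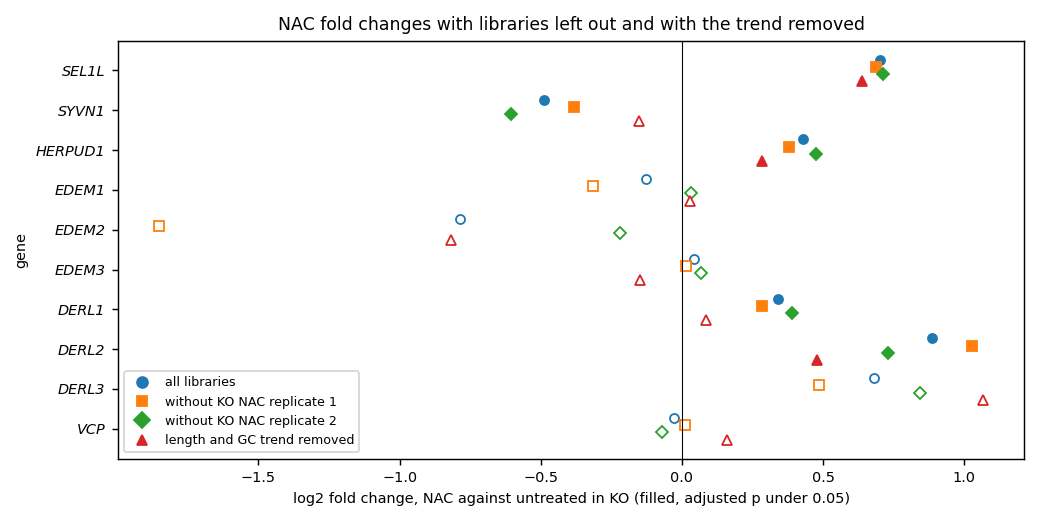
Log2 fold change of NAC against untreated KO cells (horizontal axis) for the 10 ERAD genes with all libraries, without each NAC library, and with the length and GC trend removed, filled where the adjusted p was under 0.05. SEL1L stays between 0.64 and 0.71, while SYVN1 moves from -0.49 to -0.15 and DERL1 from 0.34 to 0.09 when the trend is removed.

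The comparison of 5% O2 with normal O2 in KO cells asks what lower oxygen did in the knockout. None of the 10 ERAD genes was called by edgeR, 3 had an unadjusted p under 0.05, and DESeq2 called 1. Of all tested genes, 24.8% had an unadjusted p under 0.05 and DESeq2 called 13.5%, so these counts are near the background. Those 3 were DERL1, VCP and SYVN1. DERL1 had 75.4 and 72.7 CPM at 5% O2 against 59.4 and 61.9 CPM, a log2 fold change of 0.29 ± 0.091 (SE, adjusted p = 0.073). DERL1 was the gene called by DESeq2 (adjusted p = 0.0335). It was also called by edgeR without NAC library 1 (adjusted p = 0.0310), without NAC library 2 (adjusted p = 0.0311) and with only the libraries compared (adjusted p = 0.0265). It was not called under the other 13 of 17 alternatives, with an adjusted p up to 0.378. VCP had 910 and 965 CPM at 5% O2 against 797 and 819 CPM, a log2 fold change of 0.21 ± 0.075 (SE, adjusted p = 0.101). VCP was called by edgeR with only the libraries compared (adjusted p = 0.0462), and not under the other 16 of 17 alternatives. SYVN1 had 27.9 and 32.8 CPM at 5% O2 against 36.4 and 37.4 CPM, a log2 fold change of -0.28 ± 0.12 (SE, adjusted p = 0.171). In each of these 3 genes the libraries of the 2 groups did not overlap. The same held for 6 of the 10 genes, beside 60.9% of all tested genes. SEL1L (0.21 ± 0.11), HERPUD1 (0.16 ± 0.11) and DERL3 (0.80 ± 0.46) also had both 5% O2 libraries above both untreated KO libraries, without a call. The count of 0 stands beside 3.68% higher and 4.13% lower of all tested genes. The median of the 10 was 0.15 against 0.00, and 0.05 against 0.00 with the length and GC trend removed. By an absolute log2 fold change over 1 with an unadjusted p under 0.05, 0 of 10 passed, beside 2.02% of all tested genes.

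NAC was also compared with 5% O2 in KO cells, which tests the difference between both groups directly. The labels give no duration of either exposure. The study's scheme has both exposures last several passages before RNA-seq, while its text gives about a day for RNA-seq at 5% O2. Whether the exposures lasted equally long is not known, so exposure time and agent cannot be told apart here. SEL1L and DERL2 were higher with NAC, and VCP was lower. DERL2 differed by 0.74 ± 0.13 on the log2 scale (SE, adjusted p = 0.00212), and by 0.88 without NAC library 1. Over the alternatives its value ran from 0.464 to 0.879, with an adjusted p from 1.36e-07 to 0.0411. SEL1L differed by 0.495 ± 0.11 (SE, adjusted p = 0.00657), and by 0.48 without NAC library 1. The SEL1L call was lost without either library at 5% O2, while its log2 fold change ran from 0.391 to 0.529 over the 17 alternatives. VCP had 768 and 815 CPM with NAC and 910 and 965 CPM at 5% O2, a log2 fold change of -0.24 ± 0.075 (SE, adjusted p = 0.0305). The VCP call was lost under 8 of 17 alternatives, among them the fit without NAC library 1. VCP ran from -0.288 to -0.121 over the alternatives, with an adjusted p from 0.00527 to 0.264. HERPUD1 (0.27 ± 0.11, adjusted p = 0.0727) and SYVN1 (-0.21 ± 0.12, adjusted p = 0.231) were not called. Leaving out NAC library 1 put HERPUD1 at 0.225 (adjusted p = 0.199, from 0.0573 to 0.245 over the alternatives) and SYVN1 at -0.099 (adjusted p = 0.631, from 0.0782 to 0.99). The 2 higher and 1 lower of 10 stand beside 15.5% higher and 13.6% lower of all tested genes, with a median of 0.05 against 0.04. The 10 gave 2 higher and 0 lower without NAC library 1, with a median of -0.05, beside 13.4% and 12.8% of all tested genes and their median of 0.02. With the length and GC trend removed they gave 2 and 0 with a median of 0.07, beside 7.58% and 8.02%. None of the 10 passed an absolute log2 fold change over 1 with an unadjusted p under 0.05, beside 4.42% of all tested genes.

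The other genes of the pathway were read from lists, some of which share genes. Of 48 other ERAD genes, 22 were higher and 7 lower with NAC against untreated KO cells, 22 and 6 without NAC library 1, and 13 and 3 with the length and GC trend removed. Of all tested genes 23.8% were higher and 20.8% lower, 21.2% and 19.7% without NAC library 1, and 13.3% and 11.4% with the trend removed, which is the background for every list below. The median log2 fold change of the 48 was 0.26, against 0.02 for all tested genes, and 0.20 against 0.00 with the trend removed. DNAJB9, an ER co-chaperone, rose by 1.11 ± 0.13 (SE, adjusted p = 5.19e-05), was at 1.01 without NAC library 1, and was at 0.30 without a call with the trend removed. DNAJB14, a membrane co-chaperone, rose by 1.13 ± 0.13 (SE, adjusted p = 5.28e-05), by 0.91 without NAC library 1, and by 0.48 with the trend removed (adjusted p = 0.023). BAG6, a cytosolic holdase for membrane proteins, fell by 1.55 ± 0.30 (SE, adjusted p = 0.00126), and was at -1.68 without NAC library 1 and -1.03 with the trend removed. In KO against WT with all libraries, 1 of the 48 was higher and 0 lower, beside 1.34% and 0.622% of all tested genes. This was again BAG6, at 1.66 ± 0.30 (SE, adjusted p = 0.0171). It had 13.1 and 9.98 CPM in WT and 28.5 and 44.5 CPM in untreated KO cells. Of its 31-base words 81.5% also occur on alternate scaffolds, so its level is uncertain, and the KO call was lost with the trend removed, at 1.54 (adjusted p = 0.0522). At 5% O2, 1 of the 48 was higher and 0 lower, and 4 and 0 without NAC library 1. The 1 was the selenoprotein SELENOK, at 0.48 ± 0.11 and at 0.17 without a call once the trend was removed (adjusted p = 0.423). With NAC against 5% O2, 14 were higher and 5 lower (12 and 4 without NAC library 1, 7 and 2 with the trend removed), among them the lectin ERLEC1 at 0.79 ± 0.14 (0.53 without NAC library 1, 0.465 with the trend removed). For all tested genes these shares were 15.5% and 13.6%, 13.4% and 12.8%, and 7.58% and 8.02%. At 5% O2 they were 3.68% and 4.13%, 8.04% and 8.79% without NAC library 1, and 1.24% and 0.352% with the trend removed. These shares for NAC against 5% O2 and for 5% O2 are also the background for the same comparisons in every list below. In KO against WT, 17.6% of all tested genes had an unadjusted p under 0.05 and DESeq2 called 5.4%, which is the background for the counts of 0 below.

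The translocon, signal sequence receptor and signal peptidase genes, which bring proteins into the ER, gave 14 higher and 0 lower of 18 with NAC against untreated KO cells. Their median log2 fold change was 0.67, and 14 and 0 were also called without NAC library 1. With the length and GC trend removed, 8 were higher and 1 lower and the median was 0.18. SPCS3, a signal peptidase subunit, rose by 1.04 ± 0.088 and SSR2 by 0.96 ± 0.095 on the log2 scale (SE), and both were also called without NAC library 1 (1.11 and 0.90) and with the trend removed (0.46 and 0.66). TRAM1 was at 0.91 ± 0.10, at 0.90 without NAC library 1, and at 0.18 without a call with the trend removed (adjusted p = 0.13). At 5% O2, 4 of these 18 were higher and 0 lower, beside 3.68% and 4.13% of all tested genes, and 6 and 0 without NAC library 1. Among the 4 was TRAM1 at 0.51 ± 0.10. With the trend removed 1 was higher and 0 lower, beside 1.24% and 0.352%, and TRAM1 was not called (0.235, adjusted p = 0.174). With NAC against 5% O2, 10 were higher and 0 lower (12 and 0 without NAC library 1, 5 and 1 with the trend removed). Beside the counts for NAC against 5% O2 stand 15.5% higher and 13.6% lower of all tested genes, and 7.58% and 8.02% with the trend removed. In KO against WT, edgeR called 0 of the 18, with 2 at an unadjusted p under 0.05 and 0 by DESeq2, beside 17.6% and 5.4% of all tested genes.

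Of 26 VCP cofactors, 8 were higher and 5 lower with NAC against untreated KO cells (9 and 5 without NAC library 1, 3 and 3 with the trend removed), beside 23.8% and 20.8% of all tested genes (13.3% and 11.4% with the trend removed). Their median was 0.27, and 0.08 with the trend removed. With NAC against 5% O2 they gave 5 and 2 (7 and 3 without NAC library 1, 1 and 3 with the trend removed). Beside the latter stand 15.5% and 13.6% of all tested genes, and 7.58% and 8.02% with the trend removed. With NAC against untreated KO cells, ZFAND1 was at 1.05 ± 0.12 (0.94 without NAC library 1) but at 0.05 without a call with the trend removed. UBE4B fell by 0.77 ± 0.088 on the log2 scale and was at -0.76 without NAC library 1 and -0.43 with the trend removed (adjusted p = 0.002). In KO against WT, edgeR called 0, with 1 at an unadjusted p under 0.05 and 0 by DESeq2, beside 17.6% and 5.4% of all tested genes. At 5% O2, edgeR called 0, with 6 at an unadjusted p under 0.05 and 1 by DESeq2, beside 24.8% and 13.5% of all tested genes, and 1 was higher and 0 lower without NAC library 1.

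Of 24 tested ER chaperones and folding enzymes, 9 were higher and 1 lower with NAC against untreated KO cells (9 and 0 without NAC library 1, 7 and 3 with the trend removed). Their median was 0.11, and 0.08 with the trend removed. The disulphide isomerase PDIA3 rose by 0.59 ± 0.075 (SE, adjusted p = 7.8e-05), by 0.63 without NAC library 1, and by 0.38 with the trend removed. At 5% O2, 2 were higher and 0 lower, HSP90B1 at 0.33 ± 0.085 and PDIA3 at 0.29 ± 0.074, beside 3.68% and 4.13% of all tested genes. Leaving out NAC library 1 gave 7 higher and 1 lower of the 24 at 5% O2, beside 8.04% and 8.79%. Both calls at 5% O2 were lost with the trend removed (HSP90B1 at 0.15, adjusted p = 0.323, and PDIA3 at 0.22, adjusted p = 0.135). With NAC against 5% O2, 3 were higher and 0 lower (2 and 1 without NAC library 1, 1 and 1 with the trend removed), beside 15.5% and 13.6% of all tested genes. The 3 calls, PDIA3, PDIA6 and CANX, were all lost with the trend removed, at 0.16 (adjusted p = 0.127), 0.093 (adjusted p = 0.432) and 0.024 (adjusted p = 0.84). PDIA6 and CANX were not called without NAC library 1 either, at 0.19 and 0.25. In KO against WT, edgeR called 0 of the 24, with 0 at an unadjusted p under 0.05 and 0 by DESeq2, beside 17.6% and 5.4% of all tested genes. Of 15 sensors and transcription factors of the unfolded protein response, 5 were higher and 2 lower with NAC, 2 and 2 without NAC library 1, and 1 and 1 with the trend removed. Those 15 had a median of 0.07, which was -0.09 without NAC library 1 and 0.14 with the trend removed. The 23.8% and 20.8% of all tested genes stand beside their counts, or 13.3% and 11.4% with the trend removed. CREB3L2, a membrane-bound transcription factor, fell by 1.13 ± 0.11 (SE, adjusted p = 2.36e-05), and was at -1.24 without NAC library 1 and -0.72 with the trend removed. DDIT3 (CHOP) was at 1.06 ± 0.37 (SE, adjusted p = 0.0362), and its call was lost without NAC library 1 (0.53, adjusted p = 0.328) and with the trend removed (0.66, adjusted p = 0.222). At 5% O2, 0 were higher and 1 lower (CREB3L2, not called with the trend removed), and 1 and 1 without NAC library 1. With NAC against 5% O2, 1 was higher and 2 lower (0 and 1 without NAC library 1, 1 and 1 with the trend removed). Beside the counts of the 15 for NAC against 5% O2 stand 15.5% and 13.6% of all tested genes, and 7.58% and 8.02% with the trend removed. In KO against WT with all libraries, edgeR called 0 of the 15, with 2 at an unadjusted p under 0.05 and 0 by DESeq2. The same 17.6% and 5.4% stand beside these counts.

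**Figure D5:**
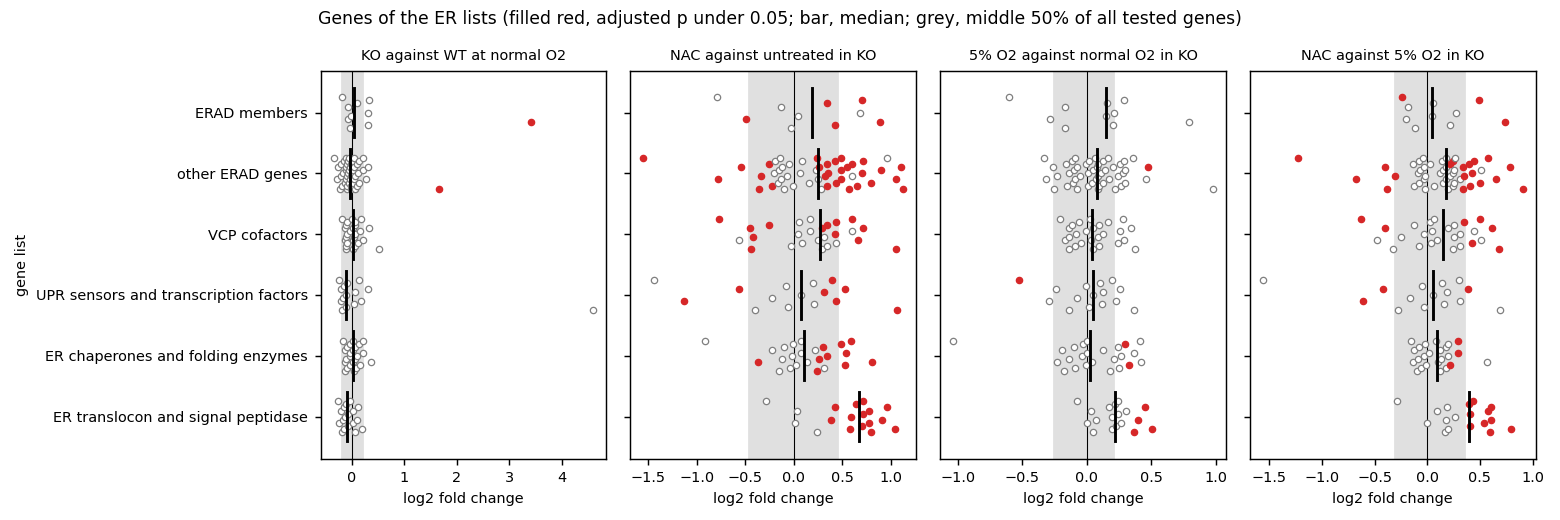
Log2 fold changes (horizontal axes) of the genes on 6 lists in the 4 comparisons, filled red where the adjusted p was under 0.05, with a bar at each list's median and the middle 50% of all tested genes in grey. With NAC against untreated KO cells the translocon and signal peptidase list sits furthest to the right, with a median of 0.67, and the ERAD members have a median of 0.19. That order does not hold with the length and GC trend removed. The medians are then 0.18 for the translocon list, 0.20 for the other ERAD genes and 0.12 for the ERAD members.

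Of the 12 pluripotent cell markers, 3 were higher and 6 lower with NAC against untreated KO cells (3 and 7 without NAC library 1, 2 and 5 with the trend removed). DNMT3B was at -0.97 ± 0.099 (-0.82 without that library, -0.61 with the trend removed) and DPPA4 at 0.70 ± 0.080 (0.65 and 0.20). Germ layer markers were low throughout, at 5.98 to 17.8 CPM summed over 12 genes, 3 or 4 of the 12 at 0 counts in each library, and 0 higher and 1 lower of 7 tested with NAC (0 and 1 of 9 without NAC library 1). Per kilobase, SOX1 was the most abundant of them in 5 libraries, MIXL1 in both libraries at 5% O2 and MESP1 in NAC library 1. The 10 secretory and plasma cell markers, among which SDC1 was the most abundant per kilobase, summed to between 88.6 and 140.1 CPM with 5 or 6 at 0 counts, and 0 were higher and 2 lower of 3 tested with NAC (0 and 1 of 4 without NAC library 1). With the trend removed edgeR called 0 of the 3, with 1 at an unadjusted p under 0.05 and 1 by DESeq2 without that correction, and SDC1 was at -0.042 (adjusted p = 0.778) and CD38 at -2.17 (adjusted p = 0.0686). Of 6 tested mesenchymal cell markers, 2 were higher and 0 lower with NAC, PDGFRB at 3.53 ± 0.82 and PDGFRA at 1.54 ± 0.49, and 3 and 0 with the trend removed, PDGFRB at 4.19 and PDGFRA at 1.59 among them. Without NAC library 1, 0 were higher and 3 lower, and PDGFRB (0.63) and PDGFRA (0.22) were not called. Among the ubiquilin family, UBQLN2 fell by 0.65 ± 0.11 with NAC (SE, adjusted p = 0.000433), and was at -0.55 without NAC library 1 and -0.74 with the trend removed. UBQLN1, the targeted gene, was called higher with NAC against untreated KO cells, at 0.38 ± 0.12 (SE, adjusted p = 0.0196). That call was lost without NAC library 1 (0.20, adjusted p = 0.168) and with the trend removed (0.19, adjusted p = 0.21). UBQLN4 was called lower with NAC (-0.37 ± 0.10, adjusted p = 0.0104) and with NAC against 5% O2 (-0.31 ± 0.10, adjusted p = 0.0373). Neither UBQLN4 call was made with the trend removed (-0.025 and -0.098), and the latter was lost without NAC library 2 (-0.22, adjusted p = 0.138).

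The tested genes whose centred log2 levels over the 8 libraries lay nearest to each ERAD gene were found by the root mean square difference. RPP40 (0.046) and DLD (0.050) were nearest to SEL1L, and ZNF254 (0.069) and ZBTB6 (0.072) to DERL2. NPDC1 (0.031) and TTLL4 (0.048) were nearest to SYVN1, and PAIP1 (0.034) and EIF3I (0.038) to HERPUD1. USP39 (0.032) and SLC35F2 (0.036) were nearest to DERL1, and TK1 (0.030) and TUBB4B (0.032) to VCP. DCAF16 (0.051) and ZNF850 (0.066) were nearest to EDEM1, and CEP295 (0.050) and WDR55 (0.058) to EDEM3. The nearest genes to EDEM2 and DERL3, at their low counts, lay further off, with ZNF350-AS1 at 0.24 and PCDHA7 at 0.58. The SD of EDEM2 and DERL3 over the libraries was also larger than that of the other ERAD genes, at 0.713 and 1.697. Among the ERAD genes themselves, the nearest to SEL1L was DERL2, at 0.13, and the nearest to HERPUD1 was DERL1, at 0.095. The nearest to SYVN1 was VCP, at 0.205, which is about the SD of SYVN1 itself over the libraries (0.21).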

How the data were processed

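RNA was measured in 8 hESC libraries of 4 groups with 2 libraries each, and 4 of the 12 labelled samples were not analysed here. The deposited values were raw counts per gene, which the authors made by trimming, alignment to hg38 with hisat2 and counting with featureCounts at its defaults. The annotation is not given in the sources used here. Per the labels, read quality was checked with FastQC 0.11.9. From the counts, genes were filtered with a minimum count of 10 and scaled by TMM. A term for each group was fitted over all 8 libraries, with 4 residual degrees of freedom, in edgeR 4.0.16 (R 4.3.3), followed by a quasi-likelihood test and Benjamini-Hochberg adjustment at 0.05. The SE of a fold change was taken from its F statistic, as the size of the log2 value over the root of F. Libraries of a group differed by more than counting noise, with chi-square per degree of freedom of 9.59 to 31.2. Alternatives were DESeq2 1.42.0, other scalings and filters, a replicate block, a length and GC trend (mgcv 1.9.3), the compared libraries alone, each library left out, and the cut-off of the study on the edgeR fit, an unadjusted p under 0.05 with a log2 change larger than 1 either way, where the study used DESeq2. Named genes were all 10 ERAD genes, up to 3 called genes with the largest change per list and comparison, the ubiquilins, PGK1 and DDIT4, and the 2 nearest genes to each ERAD gene with a prior count of 2. The members and lists were chosen with earlier results of these data known.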

Additional observations from a re-analysis of the deposited data

How the results depend on the processing

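Of 672 log2 fold changes of the 10 ERAD genes under the alternatives, 647 kept their direction and their side of the threshold (or were uncalled under both), 20 lost a call and 5 gained one. No called one changed sign, and 25 values of uncalled genes did. With NAC against untreated KO cells, SEL1L (0.64 to 0.76) and DERL2 (0.475 to 1.04) were called under all 17 alternatives. At their low counts EDEM2 and DERL3 gave no value when 10 counts were required in every library, which left 0 ERAD genes called in KO against WT. The cause of the other changes was not tested. No other scaling moved the median of all genes by over 0.1.

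All genes called in KO against WT numbered 312, and 860 by DESeq2, 1252 with no filter on low counts, 199 with the length and GC trend removed, 1124 from the compared libraries alone, 64 to 1311 with a library left out, and 409 (177 higher, 232 lower, against 213 and 99) by the cut-off of the study on the edgeR fit. For 5% O2 the same were 1243, 2144, 2220, 253, 3009 and 36 to 2763, and 321 by that cut-off. With NAC against untreated KO cells there were 7100, and 3929 with the trend removed, 1435 by that cut-off and 5031 to 7591 with a library left out. With NAC against 5% O2 there were 4635, and 2483 with the trend removed, 3050 from the compared libraries alone, 703 by that cut-off and 1354 to 5468 with a library left out. With the trend removed, the share of calls that were higher went from 68.3% to 45.2% in KO against WT and from 47.1% to 77.9% at 5% O2.

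ERAD genes called with a library left out were 0 to 1 in KO against WT, 3 to 5 with NAC, 0 to 1 at 5% O2 and 1 to 3 with NAC against 5% O2. With NAC, 3 were called with the trend removed and 0 by the cut-off of the study on the edgeR fit, which also gave 0 with NAC against 5% O2. At 5% O2, DESeq2 called 1 and the compared libraries alone gave 2. For TERT, called lower with NAC (-0.69), the log2 fold change was 0.016 with the trend removed. For DDIT4, called higher with NAC (2.36), it was -0.196 without NAC library 1 and 3.23 without NAC library 2.

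Libraries share replicate numbers 1 and 2 across groups, and whether a number names a common batch is not given. Across genes, deviations of libraries with the same number correlated between groups by -0.02 to 0.08. With a replicate block, 1, 5, 0 and 3 ERAD genes were called in the 4 comparisons (KO against WT, NAC, 5% O2, NAC against 5% O2), and 366, 7173, 1417 and 4796 of all genes. With the block and the trend removed together, all genes called were 170, 3742, 220 and 2213, 2 ERAD genes (SEL1L and DERL2) were called with NAC, HERPUD1 was not (0.28, adjusted p = 0.0684), and TERT was at 0.018.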
